A study of Mus musculus with 8 samples.

Results

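The Rab genes of mouse encode small GTPases that sort vesicles between the membranes of the cell. They were taken as all genes of the deposited expression tables whose symbol is Rab followed by a number and at most 1 letter. Of 14709 genes in both tables together, 53 met this rule, 50 of them in both tables, Rab42 in the table of sorted cells alone and Rab39 and Rab44 in the overexpression table alone. RNA-seq was done on 8 samples of mouse embryonic stem cells (mESCs) in 2 experiments, with 4 groups of 2 samples. In the first, 500 cells per sample were sorted into a KLF3-GFP-positive and a KLF3-GFP-negative group (GFP-positive and GFP-negative below). Both groups came from 1 reporter line with a constitutive (CAGGS) construct of GFP joined to the N-terminal part of KLF3, which lacks the DNA-binding domain, beside DsRed as a marker of the construct. KLF3 is a Krüppel-like zinc finger transcription factor, and the groups carry the same construct and were separated by their GFP signal. Colonies with DsRed were picked, but their number is not given in the sources used here. In the second, doxycycline at about 1 µmol/L induced GFP (GFP-overexpressing) or codon-optimised Klf3 (KLF3-overexpressing) for 72 h from the Col1A1 locus of R26 cells, in clones that were picked on feeder cells. These cells carried the doxycycline-dependent activator M2rtTA at Rosa26 in both groups, and the labels of all 4 groups name C57BL/6(F) and 129/sv(M) as the crossed strains. All were grown in serum with LIF on gelatin.

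Rab proteins switch between a GTP-bound form, which sits on a membrane and recruits effectors such as tethers and motor proteins, and a GDP-bound form. Guanine nucleotide exchange factors (GEFs) load them with GTP, and GTPase-activating proteins (GAPs), most of them with a TBC domain, stop them. Escort proteins and a geranylgeranyl transferase attach the lipid that anchors them, and GDP dissociation inhibitors (GDIs) carry the inactive form through the cytosol. Each Rab favours certain membranes, so the members were grouped by compartment: the ER and Golgi, the early endosome, the recycling endosome, the late endosome and lysosome, exocytosis and the plasma membrane, and the cilium with members of other or unclear place.

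All levels below are FPKM (fragments mapped to a gene, divided by the length of its transcript and the size of the library), which the authors deposited as 1 average of 2 samples per group. The values of single samples, their spread and the number of reads behind them are therefore unknown, and no difference below has an SD or a test. A difference is log2(FPKM + 1) in the KLF3-GFP-positive or KLF3-overexpressing group minus that in its reference group, which understates the change of low genes. It was computed for genes that averaged 1 FPKM or more over the pair of columns of an experiment, and past 2-fold means above 1 or below -1 on this scale. Of the 51 Rab genes listed in sorted cells, 40 met the minimum, and of the 52 listed in the overexpression experiment, 43 did. The library protocols of the experiments differed, so levels are compared within an experiment.

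Among all genes the median difference was 0.03 in sorted cells and -0.18 in the overexpression experiment, and an individual difference in the latter is best read against this shift. Klf3 itself had 107 and 122 FPKM in the GFP-negative and GFP-positive groups, where reporter reads can count towards it, and 58.7 and 47.8 FPKM in the GFP and KLF3 overexpression groups, where reads of the codon-optimised sequence need not align to it. All 8 embryonic stem cell markers were above 3 FPKM in every group. The 10 markers of primitive and visceral endoderm were past 2-fold higher in both experiments, beside 13.8% and 6.6% of all genes. Their summed levels were 9.11 and 559.7 FPKM in the GFP-negative and GFP-positive groups. In the GFP and KLF3 overexpression groups these were 35.0 and 199.7 FPKM. Of the 8 embryonic stem cell markers, 5 were past 2-fold lower in sorted cells, beside 8.32% of all genes. In the overexpression experiment 3 were, beside 10.1%, while Pou5f1 (883 and 990 FPKM) and Dppa5a (3794 and 6334 FPKM) had differences above 0. Of the 10 trophoblast markers, the keratins Krt8 and Krt18 were past 2-fold higher in both experiments and Hand1 in the overexpression experiment, while Elf5 was not listed in either table and Cdx2 was at most 0.6 FPKM. The summed level of this list was 35.1 and 393 FPKM in the sorted groups and 98.1 and 549 FPKM in the overexpression groups. Most of it came from Krt8 (18.3 and 206 FPKM in the sorted groups, 26.3 and 176 FPKM in the overexpression groups) and Krt18 (12.7 and 183 FPKM, 36.6 and 339.6 FPKM). Tfap2c had 2.4 and 0.77 FPKM in the sorted groups and 26.2 and 13.1 FPKM in the overexpression groups. Of the 10 fibroblast and feeder markers, 3 were listed in sorted cells and 5 in the overexpression experiment, with Col1a2 at most 0.4 FPKM in any group and Vim at 12.4 and 4.15 FPKM in the sorted groups and at 44.8 and 56.0 FPKM in the overexpression groups. Of the 6 macrophage and blood markers, 3 and 2 were listed, Ptprc in neither, with Cd68 at 4.5 and 15.0 FPKM in the sorted groups and at 12.7 and 8.64 FPKM in the overexpression groups. Laptm5 of the same list had 3.33 and 2.14 FPKM in the sorted groups and 9.6 and 14.4 FPKM in the overexpression groups. In bulk RNA, fewer cells of a type and less RNA per cell cannot be told apart, and the part of these markers in the Rab values was not tested.

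Members of the Rab11 and Rab5 families differed from their closest paralogs in the values given below, so the promoters of 5 of these genes are shown for comparison. The 250 bases before the RefSeq start site follow for each, 5′ to 3′ on the strand of the gene in build GRCm38.p6, which is the assembly of mm10. Capitals mark the box CACCC of Krüppel-like factors on either strand (CACCC or GGGTG) and the E-box CACGTG. Where GT stands directly before this E-box and AC directly after it, forming the palindrome of the CLEAR element of lysosomal genes, these flanking bases are in capitals as well.
Rab11a (chr9:64737757-64738006, minus strand): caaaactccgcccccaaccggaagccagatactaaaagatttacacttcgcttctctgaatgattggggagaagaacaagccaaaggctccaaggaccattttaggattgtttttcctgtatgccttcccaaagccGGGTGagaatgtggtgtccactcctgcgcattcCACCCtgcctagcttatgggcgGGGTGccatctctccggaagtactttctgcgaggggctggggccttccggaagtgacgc
Rab11b (chr17:33760487-33760736, minus strand): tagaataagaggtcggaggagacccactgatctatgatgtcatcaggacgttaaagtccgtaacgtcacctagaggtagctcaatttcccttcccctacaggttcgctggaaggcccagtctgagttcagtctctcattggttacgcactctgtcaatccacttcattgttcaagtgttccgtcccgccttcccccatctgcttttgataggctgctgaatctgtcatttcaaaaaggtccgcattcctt
Rab5a (chr17:53478984-53479233, plus strand): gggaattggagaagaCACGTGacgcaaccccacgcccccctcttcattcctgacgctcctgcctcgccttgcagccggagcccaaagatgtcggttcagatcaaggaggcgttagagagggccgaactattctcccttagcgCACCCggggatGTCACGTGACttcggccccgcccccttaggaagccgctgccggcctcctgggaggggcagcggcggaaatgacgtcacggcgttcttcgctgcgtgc
Rab5b (chr10:128696269-128696518, minus strand): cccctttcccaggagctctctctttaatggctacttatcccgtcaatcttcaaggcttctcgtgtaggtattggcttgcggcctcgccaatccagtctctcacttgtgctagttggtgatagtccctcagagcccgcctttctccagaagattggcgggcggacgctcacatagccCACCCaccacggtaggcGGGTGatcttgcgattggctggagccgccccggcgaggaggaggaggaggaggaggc
Rab5c (chr11:100738216-100738465, minus strand): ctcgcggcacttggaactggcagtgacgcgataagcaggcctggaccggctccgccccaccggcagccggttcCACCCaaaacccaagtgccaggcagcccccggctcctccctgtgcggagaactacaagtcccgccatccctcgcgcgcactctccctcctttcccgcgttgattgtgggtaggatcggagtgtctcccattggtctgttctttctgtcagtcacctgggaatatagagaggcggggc
In these stretches Rab11a had 3 CACCC boxes and its paralog Rab11b had 0, with 1 in the 50 bases after the start. Rab5b had 2, and Rab5a and Rab5c had 1 each. Rab25, also of the Rab11 family, is not shown and had 2 in a window that adds the 50 bases after the start. Whether the number of boxes goes with the differences was not tested. In windows of 300 bases that also hold 50 bases after the start, CACCC was found for 36 of 45 Rab genes with a RefSeq window (80.0%), beside 63.8% of 11456 windows of all listed genes, and the Rab windows had a median GC content of 62.0% beside 60.7%. CACGTG was found in 5 Rab windows (11.1%), beside 1151 of the 11456 windows of all genes. The longer CLEAR palindrome was found in 3 Rab windows (6.67%), those of Rab5a, Rab21 and Rab24, beside 0.672% of all windows. These letters are matches, not binding sites, and binding was not measured. No RefSeq window was matched for Rab18, Rab26, Rab2a, Rab30, Rab36, Rab37, Rab38 and Rab44.

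A few members held most of the Rab transcripts. In KLF3-GFP-negative cells, 36 of 51 listed Rab genes reached 1 FPKM, 19 reached 10 FPKM and 4 reached 50 FPKM, and in KLF3-GFP-positive cells these numbers were 38, 20 and 6. Rab11a, Rab14 and Rab1 led in both sorted groups, and the 5 highest members held 61.6% of the summed Rab FPKM in the GFP-negative and 72.9% in the GFP-positive group. After overexpression, 44 of 52 listed Rab genes reached 1 FPKM in the GFP and 41 in the KLF3 overexpression group and the 5 highest held 42.6% and 48.7%. Rab7, the Rab of late endosomes, led in GFP-overexpressing cells and Rab11a in KLF3-overexpressing cells. As seen in the plot of levels, members below the minimum or not listed in both experiments were 9 in number, namely Rab17, Rab19, Rab32, Rab36, Rab37, Rab38, Rab39, Rab39b and Rab44. They include forms known from neurons, melanocytes and blood cells.

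**Figure D1:**
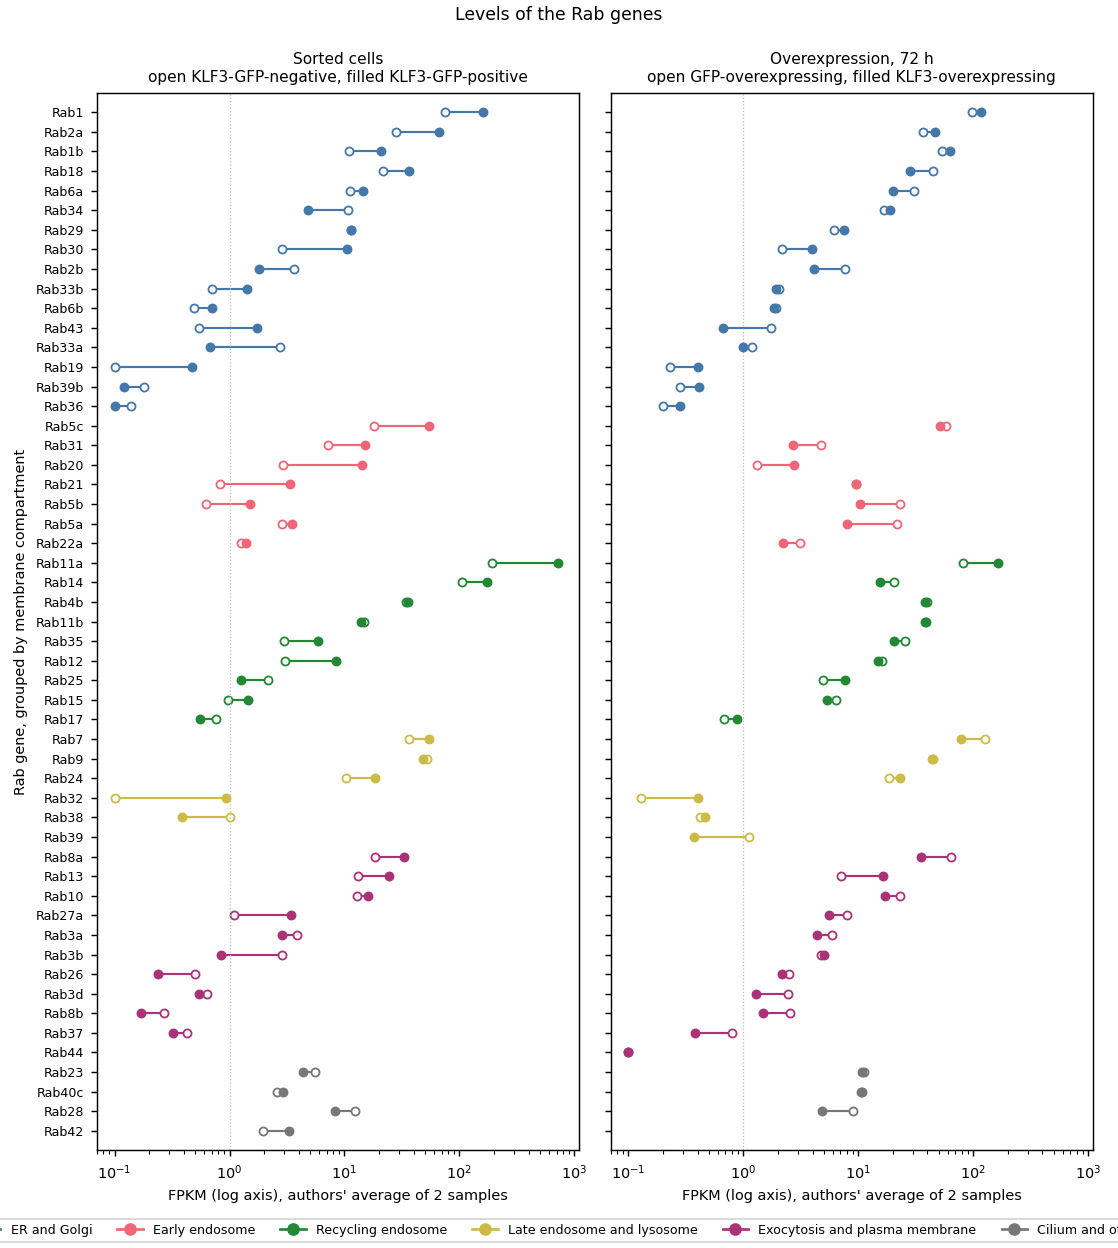
Level of each of the 53 Rab genes, in rows grouped and coloured by membrane compartment, with FPKM on a log axis. Open points are the reference group, filled points the KLF3-GFP-positive or KLF3-overexpressing group, each the authors' average of 2 samples, and the dotted line is 1 FPKM. Rab11a is farthest to the right, with 715 FPKM in KLF3-GFP-positive and 164 FPKM in KLF3-overexpressing cells.

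In sorted cells, 29 of 40 Rab genes compared were above 0 and 11 were below 0. Their summed level was 745 FPKM in the GFP-negative and 1603 FPKM in the GFP-positive group, 2.15-fold higher, and without Rab11a it was 553 and 888 FPKM, 1.61-fold higher. Summed Rab FPKM made 0.0824% and 0.169% of the summed FPKM of all genes. The median difference was 0.55 (quartiles -0.03 and 0.90), beside 0.03 over all genes. Past 2-fold, 9 members (22.5%) were higher, beside 13.8% of all genes compared, and 3 (7.5%) were lower, beside 8.32%. Of the higher members, Rab21 was below 1 FPKM in the GFP-negative group. Of the lower ones, Rab33a and Rab3b were below it in the GFP-positive group, so these genes met the minimum through their higher group. The share of members that were lower was thus near that of all genes, whereas the higher share lay above it. These counts do not set the Rab genes apart from other gene families.

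In the overexpression experiment, summed Rab levels were 998 FPKM in the GFP and 971 FPKM in the KLF3 overexpression group, 0.163% and 0.116% of all FPKM. The median difference was -0.14 (quartiles -0.54 and 0.12), which is 0.03 above the median of all genes, and 24 of 43 members lay above the latter. Past 2-fold, 2 members (4.65%) were higher, beside 6.6% of all genes compared, and 2 (4.65%) were lower, beside 10.1%. With median-ratio scaling, which sets the median of all genes to 0, the split of all genes changed to 10.4% higher and 6.22% lower, and that of the Rab genes to 2 higher and 1 lower with a median of 0.045.

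The recycling endosome held Rab11a, the member with the largest difference in plain FPKM in both experiments. Rab11a (ENSMUSG00000004771, mm10 chromosome 9 from 64715298 to 64737758, minus strand), which directs slow recycling to the plasma membrane, had 192 FPKM in the GFP-negative and 715 FPKM in the GFP-positive group, a difference of 1.89. It had 80.8 FPKM in the GFP and 164 FPKM in the KLF3 overexpression group, a difference of 1.01 that lay barely past the limit and was 0.71 after quantile normalization. In plain FPKM this was 3.72-fold higher in sorted cells and 2.02-fold higher in the overexpression experiment. Its share of the summed Rab FPKM was 25.8% and 44.6% in the sorted groups and 8.09% and 16.8% in the overexpression groups. Rab11a ranked as gene number 616 of 13056 by level in KLF3-GFP-negative cells and number 239 in KLF3-GFP-positive cells.

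Other Rabs of recycling endosomes had smaller differences. Rab12 (chromosome 17 from 66494511 to 66519717, minus strand), which takes recycling receptors to lysosomes, had 3.03 and 8.49 FPKM in the GFP-negative and GFP-positive groups (difference 1.24) and 16.2 and 14.7 FPKM in the GFP and KLF3 overexpression groups (-0.13). Rab14, which acts between endosomes and the trans-Golgi network, had 105 and 173 FPKM in the sorted groups (0.72) and 20.4 and 15.5 FPKM in the overexpression groups (-0.38). Rab35, of endosome-to-surface recycling, had 2.95 and 5.83 FPKM in the sorted groups (0.79) and 25.8 and 20.4 FPKM in the overexpression groups (-0.32). Rab4b, of fast recycling, differed by 0.06 and -0.06, though 58.1% of its 50-base words also occur in other genes, most of them in the overlapping gene Gm21983. Rab15, which lies opposite Fntb, differed by 0.31 and -0.22. In this compartment, 2 of 8 members were past 2-fold higher in sorted cells, beside 13.8% of all genes, and 0 were lower, beside 8.32%. The compartment's median was 0.52 in sorted cells, or 0.31 without Rab11a. It was -0.10 in the overexpression experiment, 0.08 above that of all genes.

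The early endosome had the highest median of all compartments in sorted cells. All 7 members were above 0, beside 51.7% of all genes, with a median difference of 0.96. Past 2-fold higher were 3 of them (42.9%), beside 13.8% of all genes. After quantile normalization, 6 of the 7 were above 0, with a median of 0.83. The same number were above 0 once the trend with gene length described below was removed, with a median of 0.84. Rab21 and Rab5b were below 1 FPKM in the GFP-negative group and met the minimum through the GFP-positive group. Rab20 (chromosome 8 from 11453391 to 11478638, minus strand), found on endosomes and phagosomes, had 2.93 and 14.2 FPKM in the GFP-negative and GFP-positive groups, the largest difference of the family (1.96). Its levels in GFP-overexpressing and KLF3-overexpressing cells were 1.32 and 2.76 FPKM (0.70), and 22.9% of its 50-base words also occur in E230013L22Rik, a gene on the other strand that overlaps its start. Rab5c (chromosome 11 from 100715008 to 100738215, minus strand), one of the Rab5 forms that drive early endosome fusion, had 18.1 and 54.8 FPKM in the sorted groups (1.55) and 58.1 and 51.8 FPKM in the overexpression groups (-0.16). Rab21 (chromosome 10 from 115289862 to 115315591, minus strand), which carries integrins, had 0.82 and 3.39 FPKM in the sorted groups (1.27) and 9.51 and 9.64 FPKM in the overexpression groups (0.02). Rab31, of early endosomes and the trans-Golgi network, was just short of the limit in sorted cells with 7.23 and 15.1 FPKM (0.96), and had 4.70 and 2.68 FPKM in the overexpression groups (-0.63). Rab22a, of early and recycling endosomes, differed by 0.09 and -0.36.

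In the overexpression experiment the early endosome held both members past 2-fold lower, 2 of 7 (28.6%) beside 10.1% of all genes. Rab5a (ENSMUSG00000017831, chromosome 17 from 53479233 to 53507671, plus strand) had 21.6 FPKM in the GFP and 8.02 FPKM in the KLF3 overexpression group, a difference of -1.33. Rab5b (ENSMUSG00000000711, chromosome 10 from 128677192 to 128696268, minus strand) had 23.0 and 10.4 FPKM (-1.07), and was within 2-fold after median-ratio scaling (-0.88) and quantile normalization (-0.90). Neither was lower in sorted cells, where Rab5a had 2.85 and 3.50 FPKM (0.23) and Rab5b 0.62 and 1.5 FPKM (0.63). The compartment's median was -0.36 in this experiment, 0.18 below that of all genes, but it was 0.07 once the trend with gene length described below was removed.

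At the ER and Golgi, sorted cells held members on both sides of the limit. Rab1 (chromosome 11 from 20201431 to 20226856, plus strand), also named Rab1a and needed for ER-to-Golgi transport, had 74.3 and 159.7 FPKM in the GFP-negative and GFP-positive groups (1.09). Rab2a (chromosome 4 from 8535643 to 8607778, plus strand), of the ER-Golgi intermediate compartment, had 28.0 and 65.9 FPKM (1.21), and the Golgi member Rab30 (chromosome 7 from 92741602 to 92837117, plus strand) had 2.89 and 10.5 FPKM (1.57). On the other side stood Rab33a (chromosome X from 48519284 to 48530232, plus strand), a Golgi Rab, with 2.75 and 0.67 FPKM (-1.17). Rab34 (chromosome 11 from 78188429 to 78192193, plus strand), which acts at the Golgi and in cilium formation, had 10.8 and 4.79 FPKM (-1.03). Rab1b, Rab6a, Rab18, Rab33b and Rab43 lay between 0.33 and 0.88, Rab29 had 11.5 and 11.4 FPKM, and Rab2b had 3.63 and 1.82 FPKM (-0.72). Of the 50-base words of Rab6a, Rab33b, Rab43 and Rab2b, 19.0%, 21.2%, 74.5% and 57.0% also occur in other genes. Rab33b and Rab43 were below 1 FPKM in the GFP-negative group. Of 12 members compared, 3 were past 2-fold higher, beside 13.8% of all genes, and 2 were lower, beside 8.32%. Both shares lay above those of all genes, and the median of the compartment was 0.62.

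None of the 13 ER and Golgi members compared in the overexpression experiment was past 2-fold, beside 6.6% of all genes higher and 10.1% lower. Rab1 had 96.6 and 116 FPKM in the GFP and KLF3 overexpression groups (0.27), Rab2a had 36.5 and 46.4 FPKM (0.34) and Rab30 had 2.18 and 3.92 FPKM (0.63). Rab34 had 16.8 and 19.0 FPKM (0.17), and Rab33a had 1.2 and 0.99 FPKM (-0.14). The lowest difference was that of Rab2b with 7.69 and 4.08 FPKM (-0.77), followed by Rab43 (-0.72), and Rab18 (-0.64) and Rab6a (-0.57), which returns cargo from the Golgi to the ER, came next. Rab2b and Rab43 share more than 50% of their 50-base words with other genes, so their values are uncertain. The median of the compartment was -0.04, 0.14 above that of all genes.

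Of 6 late endosomal members, Rab7, Rab9 and Rab24 were compared, and these were within 2-fold in both experiments. Rab32, Rab38 and Rab39 were below the minimum or not listed. Rab7 (also Rab7a), which governs the fusion of late endosomes with lysosomes, had 36.2 and 54.1 FPKM in the GFP-negative and GFP-positive groups (0.57) and 126 and 78.4 FPKM in the GFP and KLF3 overexpression groups (-0.68). Rab9, of the route from late endosomes to the trans-Golgi network, had 52.0 and 48.4 FPKM in the sorted groups (-0.10) and 44.1 and 44.9 FPKM in the overexpression groups (0.02). Rab24, linked to autophagosomes, differed by 0.78 and 0.32, with 49.6% of its 50-base words shared with Prelid1 on the opposite strand.

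For exocytosis and the plasma membrane, 1 of 6 members was past 2-fold higher and 1 lower in sorted cells. Each was 16.7%, beside 13.8% of all genes higher and 8.32% lower. Rab27a (chromosome 9 from 73044853 to 73097629, plus strand), of secretory lysosomes and exosomes, had 1.10 and 3.43 FPKM (1.08), which was within 2-fold after quantile normalization (0.98). Rab3b (chromosome 4 from 108879062 to 108943324, plus strand), of secretory vesicles, had 2.89 and 0.85 FPKM (-1.07). Both were within 2-fold in the overexpression experiment, Rab27a with 8.06 and 5.51 FPKM (-0.48) and Rab3b with 4.76 and 5.06 FPKM (0.07). In the overexpression experiment, 1 of 9 members (11.1%) was past 2-fold higher, beside 6.6% of all genes, and 0 were lower, beside 10.1%. The higher member lies at tight junctions. This was Rab13 (ENSMUSG00000027935, chromosome 3 from 90213694 to 90226385, plus strand), which brings proteins to tight junctions of epithelia, with 7.12 FPKM in the GFP and 16.3 FPKM in the KLF3 overexpression group (1.09). It had 13.2 and 24.3 FPKM in the sorted groups (0.83). Rab8a, of transport from the Golgi to the cell surface and the cilium, had 18.3 and 33.0 FPKM in the sorted groups (0.82) and 64.1 and 35.3 FPKM in the overexpression groups (-0.84), within 2-fold in both. Rab10, which serves the same route, differed by 0.30 and -0.41, and Rab3a by -0.33 and -0.36. Rab26, Rab3d and Rab8b met the minimum in the overexpression experiment alone, with differences of -0.16, -0.58 and -0.51.

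Members of the cilium and of other places were all within 2-fold. Rab28 had 12.3 and 8.30 FPKM in the sorted groups (-0.52) and 8.96 and 4.82 FPKM in the overexpression groups (-0.78). Rab23, which restrains hedgehog signalling, had 5.52 and 4.32 FPKM (-0.29) and 11.2 and 10.7 FPKM (-0.05). Rab40c, an adaptor of a ubiquitin ligase, differed by 0.13 and -0.03, and Rab42 by 0.53 in sorted cells. The median of these members was -0.08 in sorted cells (4 members), and differences between compartments were not tested.

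**Figure D2:**
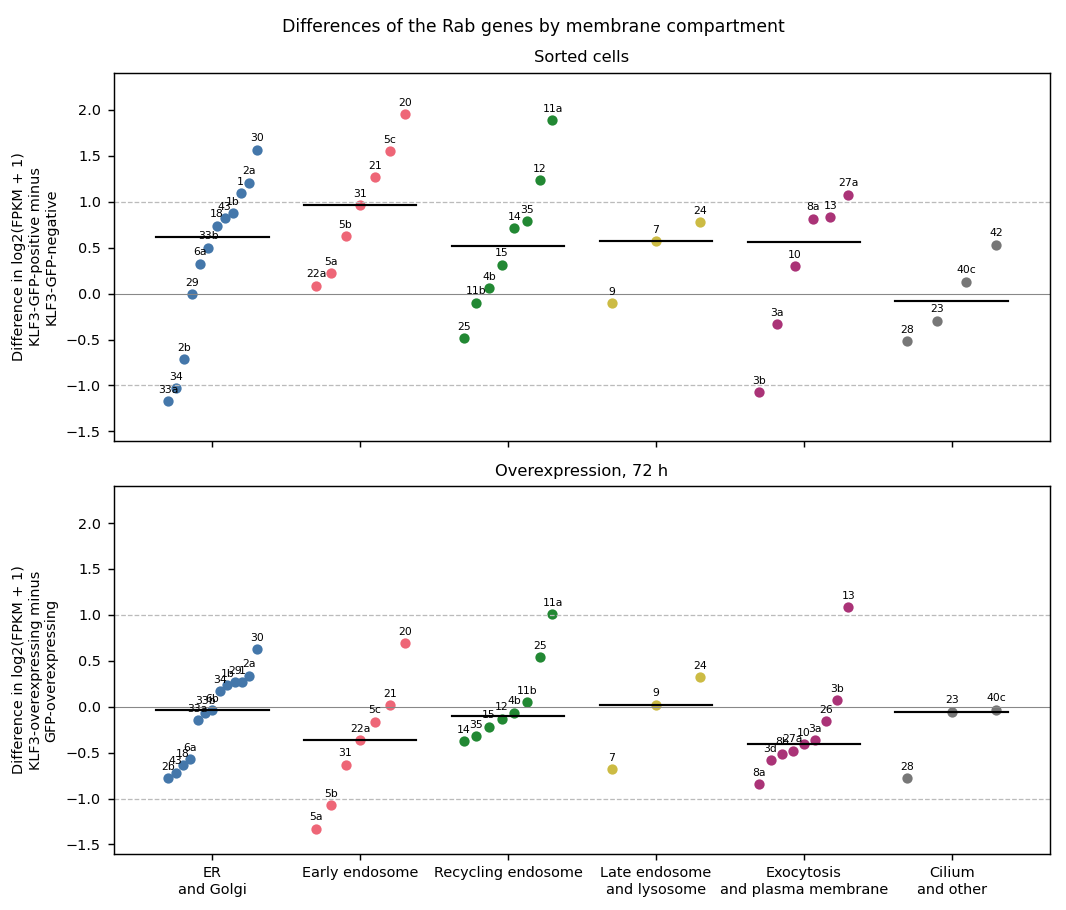
Difference in log2(FPKM + 1) of each compared Rab gene, labelled by its number, in sorted cells (top, 40 genes) and in the overexpression experiment (bottom, 43 genes), by membrane compartment. Black bars are medians and dashed lines the 2-fold limit. All 7 early endosomal members lie above 0 in sorted cells, with a median of 0.96, while Rab5a and Rab5b lie below the lower limit after overexpression.

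Shares of a family's summed FPKM within a column do not change when the whole column is multiplied by 1 factor. They can change with quantile normalization or removal of the trend with gene length described below, and were not recomputed with these. In the Rab5 family, Rab5c made 83.9% in the GFP-negative and 91.6% in the GFP-positive group, and 56.6% in the GFP and 73.8% in the KLF3 overexpression group. Rab5c thus held the larger share in the KLF3 group of each experiment, in sorted cells beside a higher Rab5c level and in the overexpression experiment beside lower levels of Rab5a and Rab5b. Rab11a made 91.8% and 97.9% of the Rab11 family (Rab11a, Rab11b and the epithelial form Rab25) in the sorted groups, and 65.3% and 77.7% in the overexpression groups. Its paralog Rab11b had 14.9 and 13.9 FPKM in the sorted groups and 37.9 and 39.2 FPKM in the overexpression groups. Rab25 had 2.16 and 1.26 FPKM in the sorted groups (-0.48) and 4.95 and 7.67 FPKM in the overexpression groups (0.54).

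Rab2a made 88.5% and 97.3% of Rab2a and Rab2b in the sorted groups and 82.6% and 91.9% in the overexpression groups, with the limit on Rab2b named above. The split between Rab1 and Rab1b stayed nearly the same, with Rab1 at 87.2% and 88.5% in the sorted groups and 64.4% and 64.9% in the overexpression groups. Among Rab8a, Rab8b, Rab10 and Rab13, Rab13 made 29.6% and 33.1% in the sorted groups, and 7.37% and 23.2% in the overexpression groups, where Rab8a made 66.3% and 50.4%. Only 5 of 53 Rab genes shared any 50-base word with another Rab gene, so sequence of this length separates nearly all of these paralogs. Words shared with genes of any kind were more common, above 10% for 10 of the 53. Rab11b shared 13.6%, with 8.87% in its pseudogene Rab11b-ps2, and Rab7 shared 12.7%, with 11.1% in Rab7-ps1. Rab5b shared 9.8%, with Gm13991.

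**Figure D3:**
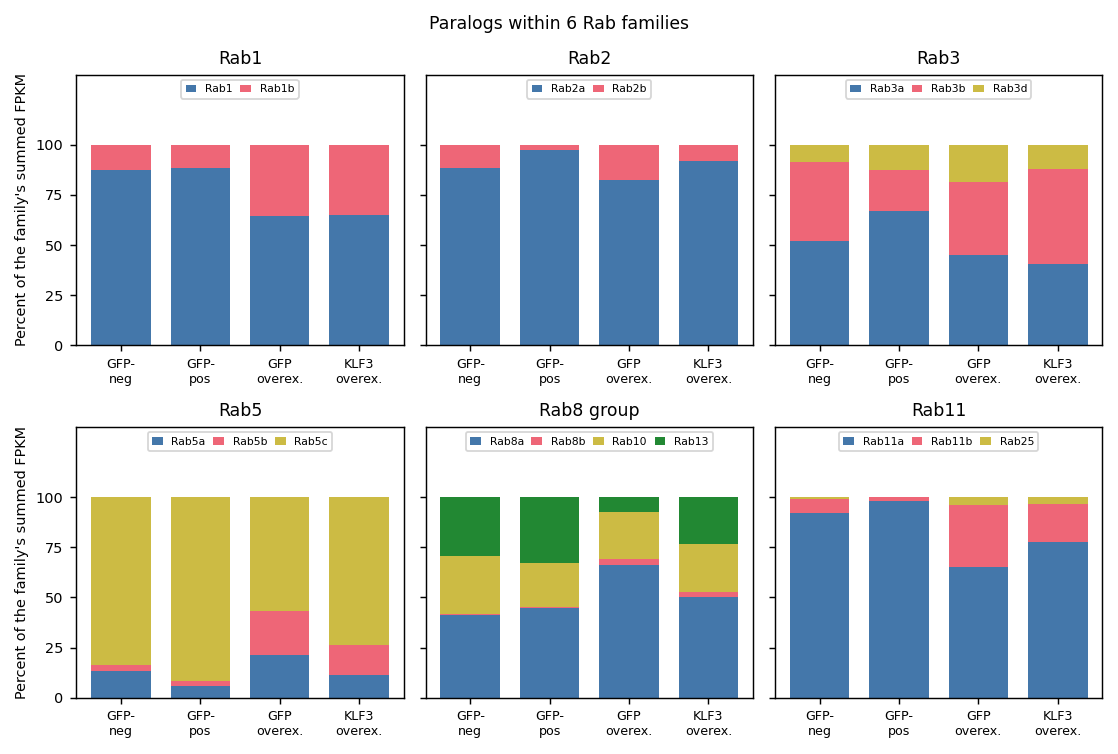
Share of each paralog in the summed FPKM of its family, in percent, for 6 families and the 4 groups (KLF3-GFP-negative, KLF3-GFP-positive, GFP-overexpressing, KLF3-overexpressing), each column the authors' average of 2 samples. Rab5c and Rab11a hold a larger share in the KLF3 group of both experiments, whereas Rab1 and Rab1b keep their split.

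Of 39 Rab genes compared in both experiments, which share no samples, 9 were above 0 in both, 19 above 0 in sorted cells and below 0 after overexpression, 6 the reverse, and 5 below 0 in both. These were 23.1%, 48.7%, 15.4% and 12.8% of the Rab genes, beside 23.8%, 27.9%, 21.3% and 26.8% of the 8887 genes compared in both. Without further scaling, the share above 0 in both was thus near that of all genes. With median-ratio scaling these numbers were 14, 14, 7 and 4, so the first 2 depend on the shift of all genes. They made 35.9%, 35.9%, 17.9% and 10.3% of the Rab genes, beside 28.0%, 21.9%, 27.0% and 23.1% of all genes with this scaling. The 9 members were Rab1, Rab1b, Rab2a, Rab11a, Rab13, Rab20, Rab21, Rab24 and Rab30, all but Rab1 also above 0 in both after quantile normalization. Rab11a alone was past 2-fold higher in both (1 of 39), beside 2.55% of all genes, and 0 members were past 2-fold lower in both, beside 0.686%. Across the 39 genes, which share the columns they come from, Pearson's r of the differences was 0.25 and Spearman's rank correlation 0.21, beside 0.21 and 0.08 across all genes.

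**Figure D4:**
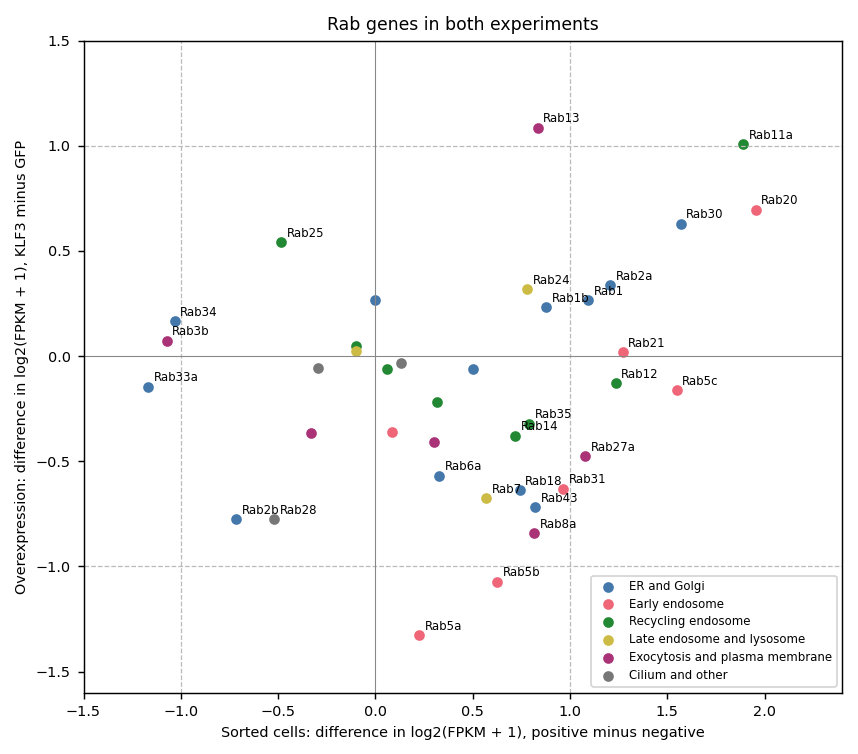
Difference in log2(FPKM + 1) of the 39 Rab genes compared in both experiments, sorted cells on the horizontal and overexpression on the vertical axis, coloured by compartment, with dashed lines at the 2-fold limit. Rab11a is alone past the upper limit on both axes, at 1.89 and 1.01, while Rab5a and Rab5b are below the lower limit on the vertical axis only.

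The lists of Rab partners were read in the same way. In sorted cells, 10 of 42 effectors compared (23.8%) were past 2-fold higher, beside 13.8% of all genes, and 1 (2.38%) was lower, beside 8.32%. Of the higher ones, Eea1, Rab11fip5, Tgfbrap1, Myo5b and Lrrk1 were below 1 FPKM in the GFP-negative group. They met the minimum through the GFP-positive group, and the lower one, Sytl1, met it through the GFP-negative group. The effectors' median of 0.38 was 0.15 with a minimum of 5 FPKM and 0.56 with a pseudocount of 0.1. With median-ratio scaling the counts were 8 (19.0%) higher and 2 (4.76%) lower, beside 13.2% and 8.77% of all genes. Rab11fip5, an effector of Rab11, had 0.33 and 3.99 FPKM in the GFP-negative and GFP-positive groups (1.91). Plin3, a lipid droplet protein that binds Rab9, had 14.0 and 49.96 FPKM (1.77), and Sytl1, a synaptotagmin-like effector of Rab27, had 2.57 and 0.55 FPKM (-1.20).

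Regulators were counted by their role in sorted cells. Of 32 GEFs, 5 (15.6%) were past 2-fold higher, beside 13.8% of all genes, and 1 (3.12%) was lower, beside 8.32%, with a median of 0.11. Of the higher ones, all but St5 (Rab3il1, Rin2, Rin3 and Rgp1) were below 1 FPKM in the GFP-negative group. These met the minimum through the GFP-positive group. Rab3il1, an exchange factor of Rab8, had 0.46 and 12.97 FPKM (3.26), and Rin3, an exchange factor of Rab5 and Rab31, was listed at the lowest value of 0.10 and at 2.45 FPKM. Trappc13, a TRAPP complex subunit, had 36.3 and 15.8 FPKM (-1.15). Of 23 GAPs, Tbc1d13 alone (4.35%) was past 2-fold, beside 13.8% of all genes higher, with 1.34 and 5.25 FPKM (1.42). Of 8 GDIs, escort proteins and prenyltransferase genes, Arl6ip5, a relative of the GDI displacement factor Rabac1, was past the limit with 31.1 and 64.9 FPKM (1.04), but within 2-fold after median-ratio scaling.

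In the overexpression experiment, 0 effectors were past 2-fold higher and 9 of 53 (17.0%) lower, beside 6.6% of all genes higher and 10.1% lower. The lowest were Appl2, an effector of Rab5, with 15.1 and 3.47 FPKM in the GFP and KLF3 overexpression groups (-1.85), and Myo5a, a myosin that binds Rab27 complexes, with 11.4 and 3.47 FPKM (-1.47). The count of lower effectors was 4 (7.55%) with median-ratio scaling, beside 6.22% of all genes. After removal of the length trend it was 3 (5.66%), beside 5.26% of all genes, with 1 higher (1.89%), beside 7.1%. Of 34 GAPs, 3 were past 2-fold lower (8.82%), led by Tbc1d15, a GAP of Rab7, with 23.1 and 8.65 FPKM (-1.32) and Rabgap1 with 12.3 and 4.62 FPKM (-1.24), and 0 after removal of the length trend. Their median of -0.49 was -0.18 after quantile normalization and -0.10 after removal of that trend. Of 44 GEFs, Rin3 was past 2-fold higher with 0.29 and 2.13 FPKM (1.28), as it was in sorted cells. In both experiments Rin3 met the minimum through its higher group. Sbf2, an exchange factor of Rab28, was lower with 10.5 and 2.47 FPKM (-1.72). Among the 10 GDI and escort genes, Chm, the Rab escort protein REP1, was past 2-fold lower with 3.37 and 0.53 FPKM (-1.51).

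**Figure D5:**
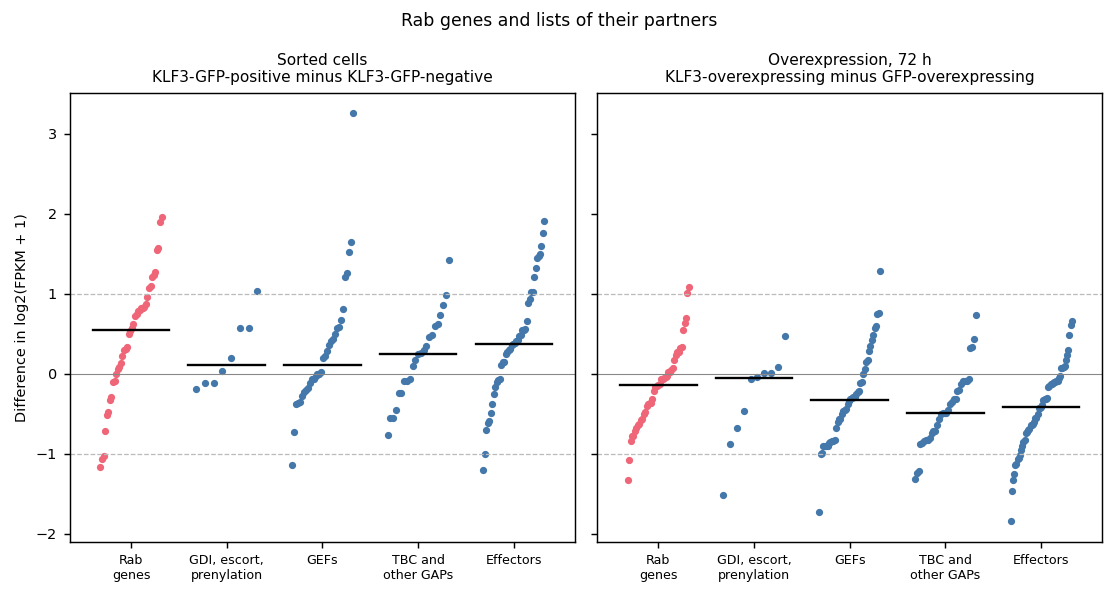
Difference in log2(FPKM + 1) of the Rab genes compared and of 4 lists of partners, in sorted cells (left) and in the overexpression experiment (right). Each point is a gene, black bars are medians and dashed lines the 2-fold limit. The median of the Rab genes is 0.55 in sorted cells and -0.14 after overexpression, and that of the GAPs is 0.24 and -0.49.

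Differences in the overexpression experiment moved with gene length. With all genes compared split by genomic span into 5 classes of nearly equal number, the median difference was 0.35 for the shortest and -0.49 for the longest. Of the 43 Rab genes, 17 fell in the middle class (15.9 to 29.2 kb), where their median was -0.16 beside -0.22 for all genes. With a smooth trend on span removed, the Rab median became -0.0084, Rab5a stayed past the limit and Rab5b did not (-0.90). In sorted cells the medians of all genes ran from -0.03 to 0.12 over the classes.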

How the data were processed

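RNA-seq had been done on 8 samples in 4 groups of 2, assigned by their labels. The authors aligned the reads to mm10 and computed FPKM with Cufflinks (version 2.2.1). The aligner STAR is version 2.6.0 in the submitters' processing notes, and the study's methods name another version. Whether counting used strand is not given in the sources used here. The deposited tables hold 1 column of FPKM per group, the average of 2 samples, rounded to 2 decimals, with 0.1 as the lowest value. They list 13056 genes for sorted cells and 14319 for overexpression. Depth is unknown and no sample has a value of its own, so no test, SD or interval was computed.

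Differences of log2(FPKM + 1) were computed with Python 3.11.15, numpy 2.4.6 and pandas 2.3.3 for genes that averaged 1 FPKM or more over the pair of columns, 9212 in sorted cells and 11179 in the overexpression experiment. A fold above 2 or below 0.5 on this scale was counted as past 2-fold. Identifiers at several loci were represented by the highest locus. The members, compartments, partner and marker lists were chosen with earlier results of these data known. Named genes are the members past 2-fold in either experiment, the 3 highest and 3 lowest differences, the most abundant member of each compartment, their closest paralogs, and the 2 highest and 2 lowest partners per list among those past 2-fold. The other members are given more briefly, so that each is accounted for. A planned comparison with other small GTPases is not reported here.

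Promoters are RefSeq windows of 300 bases, 250 before and 50 after the start. Shared sequence was measured as the percent of a gene's 50-base words in GENCODE M21 transcripts that occur in another gene, on either strand. Alternatives were a pseudocount of 0.1, a floor of 0.1, no minimum, a minimum of 5 FPKM, median-ratio scaling, quantile normalization, removal of a lowess trend (fraction 0.3) with genomic span, and sums over loci. The scripts were tested on simulated data.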

Additional observations from a re-analysis of the deposited data

How the results depend on the processing

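The median Rab difference in sorted cells, 0.55, was 0.72 with a pseudocount of 0.1, 0.73 with a floor of 0.1, 0.31 without a minimum, 0.78 with a minimum of 5 FPKM, 0.52 with median-ratio scaling, 0.43 with quantile normalization and 0.54 without the span trend. In the overexpression experiment, -0.14 became -0.16 with the pseudocount of 0.1 and with the floor, -0.063 without a minimum, -0.13 with a minimum of 5 FPKM, 0.045 with median-ratio scaling, -0.023 with quantile normalization and -0.0084 without the span trend. Its sign thus depended on the scaling. The 9 members past 2-fold higher in sorted cells ranged from 7 to 12 over the alternatives. The share of all genes higher ranged from 10.1% to 18.6%, beside 13.8% in the main setting. The 12 came with the pseudocount of 0.1 and the floor, where this share was 18.0% and 18.6%. The 3 lower members became 1 with a minimum of 5 FPKM, which tests fewer genes, beside 7.64% of all genes. In the overexpression experiment, the 2 higher members became 1 with quantile normalization, beside 7.16% of all genes. The 2 lower became 1 with median-ratio scaling, quantile normalization and the span trend removed, beside 6.22%, 6.36% and 5.26% of all genes. The cause was not tested. Of 16 calls of single members, 13 stayed past the limit in every setting that tested the gene, and the others were Rab27a in sorted cells (0.98 with quantile normalization, 0.97 without the span trend) and Rab5b (-0.88, -0.90 and -0.90) and Rab11a (0.71) in the overexpression experiment. Calls gained were Rab5b, Rab31 and Rab43 in sorted cells and Rab20 and Rab43 (lower) in the overexpression experiment with the smaller pseudocount or the floor, and Rab30 in the latter without the span trend (1.11). No paired analysis was possible because each group has 1 average column. For the same reason no replicate could be left out, the spread between replicates is unknown, and a difference near the limit cannot be told apart from one inside it.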
